A study of Homo sapiens with 6 samples.

Results

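Cyclins and cyclin-dependent kinases (CDKs) were followed at the mRNA level in HT29 cells after knockdown of ALDOA, the glycolytic enzyme aldolase A. The group was taken by gene symbol and held 10 genes, all found among the 28278 genes listed in each count table: the cyclins CCND1, CCND3, CCNE1, CCNE2, CCNA2 and CCNB1 and the kinases CDK1, CDK2, CDK4 and CDK6. HT29 is a colorectal adenocarcinoma line with epithelial morphology. The cells received either an siRNA against ALDOA (siALDOA, 3 libraries) or a scrambled siRNA (siControl, 3 libraries), and total RNA was isolated 48 h later for RNA-Seq. The libraries of a group were labelled as biological replicates, and both groups carried siRNA, since cells without any siRNA were not analysed here. The labels describe 1 siRNA against ALDOA in 1 cell line, so an effect of that siRNA sequence on other transcripts cannot be told apart from the loss of ALDOA.

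A CDK is a serine/threonine kinase that is active only when bound to a cyclin, and the cyclins are made and destroyed in turn as the cell cycle proceeds. D-type cyclins pair with CDK4 and CDK6 in G1 and start the phosphorylation of the retinoblastoma protein RB. E-type cyclins with CDK2 complete it at entry into S phase, cyclin A2 serves CDK2 and then CDK1 through S and G2, and cyclin B1 with CDK1 drives mitosis. In colorectal epithelium cyclin D1 is best known as a growth-factor and Wnt responsive gene, while the S-phase and mitotic members are read as marks of cycling cells.

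Each library held between 27277538 and 33237914 counted reads, and log2 levels of replicates correlated with Pearson's r between 0.989 and 0.992 across genes. Ribosomal RNA genes took 7.71% to 13.1% of the counts in siALDOA libraries and 8.15% to 17.4% in siControl libraries. ALDOA itself, the check of the labels, stood at 289 ± 13.7 CPM (counts per 1000000 library reads, scaled by the trimmed mean of M-values; mean ± SD, n = 3) with siALDOA against 632 ± 38.2 with siControl, a log2 fold change of -1.13 (SE 0.060, edgeR adjusted p = 6.95e-11). Markers of colon epithelium were present, with 10 of 11 tested and LGALS4 at 0 counts in every library. Their summed level was 9479 to 9811 CPM with siALDOA and 10045 to 10606 CPM with siControl. KRT18 fell by 0.28 and KRT19 rose by 0.38 on the log2 scale (edgeR adjusted p = 0.0152 and 5.77e-04). The KRT18 call was lost with library totals alone (edgeR adjusted p = 0.243) and in 4 of 6 fits that dropped 1 library. Of 12 markers of blood, endothelial and fibroblast cells, 3 were at 0 everywhere and 2 could be tested, and their summed level stayed between 3.28 and 4.36 CPM in all libraries. One of the 2, the endothelial PECAM1, was called lower (0.756 ± 0.399 against 1.79 ± 0.370 CPM, edgeR adjusted p = 0.0429), and its call was lost with library totals alone (adjusted p = 0.0523) and in 5 of 6 such fits. The part of these markers in the values below was not tested.

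Of the 10 cyclins and CDKs, CCND1 alone passed the test, and it was lower after ALDOA knockdown. None was called higher, by edgeR's quasi-likelihood test, limma-voom or DESeq2. In the plot of fold changes with their intervals, 8 of 10 genes lay above 0 and 2 below, where 50.3% of all tested genes lay above 0. The threshold was a Benjamini-Hochberg adjusted p of 0.05 in edgeR's quasi-likelihood test over the 15307 genes that passed the filter on low counts. That test called 9.66% of all tested genes, 4.36% of them as higher and 5.29% as lower, so 1 call among 10 genes was close to the background share. At an unadjusted p under 0.05 there were 5 genes, CCND1 on the lower side and CCND3, CCNB1, CDK1 and CDK2 on the higher side, where 23.6% of all tested genes had such a p. The median log2 fold change of the 10 was 0.13 (range -0.24 to 0.20), beside 0.0016 for all tested genes, whose quartiles were -0.12 and 0.14. With library totals alone 9 of 10 lay above 0 and their median was 0.21, beside 0.075 for all tested genes, and without siALDOA replicate 3 there were 7 above 0 with a median of 0.10. The levels of the 3 siALDOA and the 3 siControl libraries did not overlap for 4 of the 10, namely CCND1, CCNA2, CDK1 and CDK2, where 27.7% of all tested genes showed no overlap. In RNA from a whole culture, a change in the share of cells in a phase of the cycle and a change in RNA per cell cannot be told apart.

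**Figure D1:**
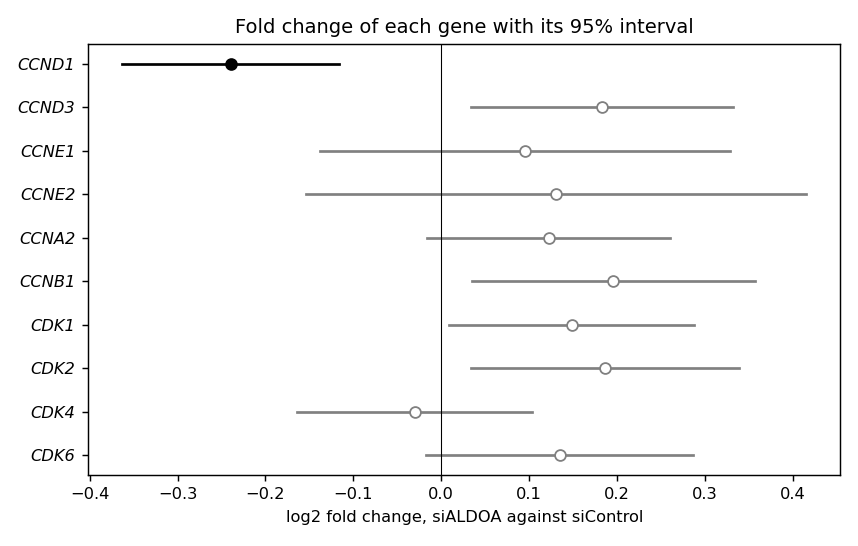
Log2 fold change of each gene in siALDOA against siControl libraries (x axis), with its 95% interval from the edgeR fit as a line. The filled point is the gene past the adjusted threshold: CCND1 at -0.24, whose interval ended at -0.12, while the other 9 points lay between -0.030 and 0.20.

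Among the G1 members, CCND1 fell and the other 3 did not pass the test. CCND1, which encodes cyclin D1 (hg38 chr11:69641156-69654474, plus strand, 5 exons in its MANE transcript), stood at 172, 190 and 192 CPM in siALDOA replicates 1 to 3 and at 210, 225 and 220 CPM in siControl replicates 1 to 3. Every siALDOA library was below every siControl library. The group means were 185 ± 10.9 and 218 ± 7.74 CPM (SD, n = 3), further apart than either SD. The level fell by 15.3%, a log2 fold change of -0.24 (SE 0.059, 95% interval -0.36 to -0.12, edgeR adjusted p = 0.0122). CCND1 ranked 803 among all tested genes by p.

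The CCND1 call was lost when libraries were scaled by their totals alone (log2 fold change -0.17, edgeR adjusted p = 0.255), and without siControl replicate 2 (-0.22, adjusted p = 0.0727) or siControl replicate 3 (-0.23, adjusted p = 0.0692). With the ribosomal RNA genes removed before scaling, the same fold change was -0.24 (edgeR adjusted p = 0.00936). Within the groups, siALDOA replicate 1 was the lowest of its group for CCND1, and without it the log2 fold change was -0.19 (edgeR adjusted p = 0.0241). The 3 genes whose log2 levels followed CCND1 most closely over the 6 libraries, among 10079 genes averaging 10 CPM or more, were PEX14 (Pearson's r 0.998), ILF2 (0.998) and TMEM30B (0.996). The knockdown itself is shared by these 6 points, and the 3 genes had log2 fold changes of -0.23, -0.20 and -0.17.

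CCND3 encodes cyclin D3, which binds the same kinases (chr6:41934934-42050357, minus strand). It stood at 60.1, 71.3 and 68.6 CPM with siALDOA and at 57.1, 61.9 and 57.1 CPM with siControl. Replicate 1 of siALDOA was below the highest siControl library, so the groups overlapped, and siALDOA replicates 2 and 3 were above all siControl libraries. This gave a log2 fold change of 0.18 (SE 0.071, 95% interval 0.034 to 0.33) and an edgeR adjusted p of 0.118. It was 0.25 (edgeR adjusted p = 0.0161) without siALDOA replicate 1 and 0.13 (adjusted p = 0.375) without siALDOA replicate 2.

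The ratio of CCND3 to CCND1 counts within a library does not depend on scaling between libraries. After ALDOA knockdown it read -1.52, -1.41 and -1.49 on the log2 scale, and the siControl replicates gave -1.88, -1.86 and -1.95. CCND1 reads outnumbered CCND3 reads in every library, by a smaller factor in each siALDOA library than in any siControl library. The difference between the group means was 0.42 (SE 0.041), with a range of 0.39 to 0.44 over the 6 fits that dropped 1 library each. With 3 against 3 libraries the exact two-sided permutation p was 0.1, the smallest this design allows, and 0.4 after adjustment over the 4 ratios computed, so this ratio could not pass the threshold by that test.

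CDK4 (chr12:57747727-57756013, minus strand) encodes a kinase partner of the D-type cyclins. Its level was 105, 117 and 119 CPM with siALDOA and 109, 119 and 120 CPM with siControl. The groups overlapped almost fully, with replicate 1 the lowest in both. The log2 fold change was -0.030 (SE 0.064, 95% interval -0.16 to 0.10, edgeR adjusted p = 0.828), an interval that holds for this fit and scaling alone. Its sign turned under library totals alone (0.043) and without siALDOA replicate 1 (0.023).

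CDK6, the other kinase partner (chr7:92604921-92836573, minus strand), stood at 155, 132 and 140 CPM with siALDOA and at 144, 125 and 119 CPM with siControl. Here replicate 1 was the highest library in both groups, the reverse of CDK4, and the groups overlapped. CDK6 had a log2 fold change of 0.13 (SE 0.073, 95% interval -0.017 to 0.29, edgeR adjusted p = 0.275). It was 0.067 without siALDOA replicate 1, 0.079 without siControl replicate 3, 0.22 without siControl replicate 1 and 0.21 with library totals alone, and was not called in any of these. The log2 ratio of CDK6 to CDK4 differed between the groups by 0.17 (SE 0.17), with an exact two-sided permutation p of 0.4 (0.667 adjusted over the 4 ratios). That difference ran from 0.047 without siALDOA replicate 1 to 0.29 without siControl replicate 1, and was 0.087 without siControl replicate 3.

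**Figure D2:**
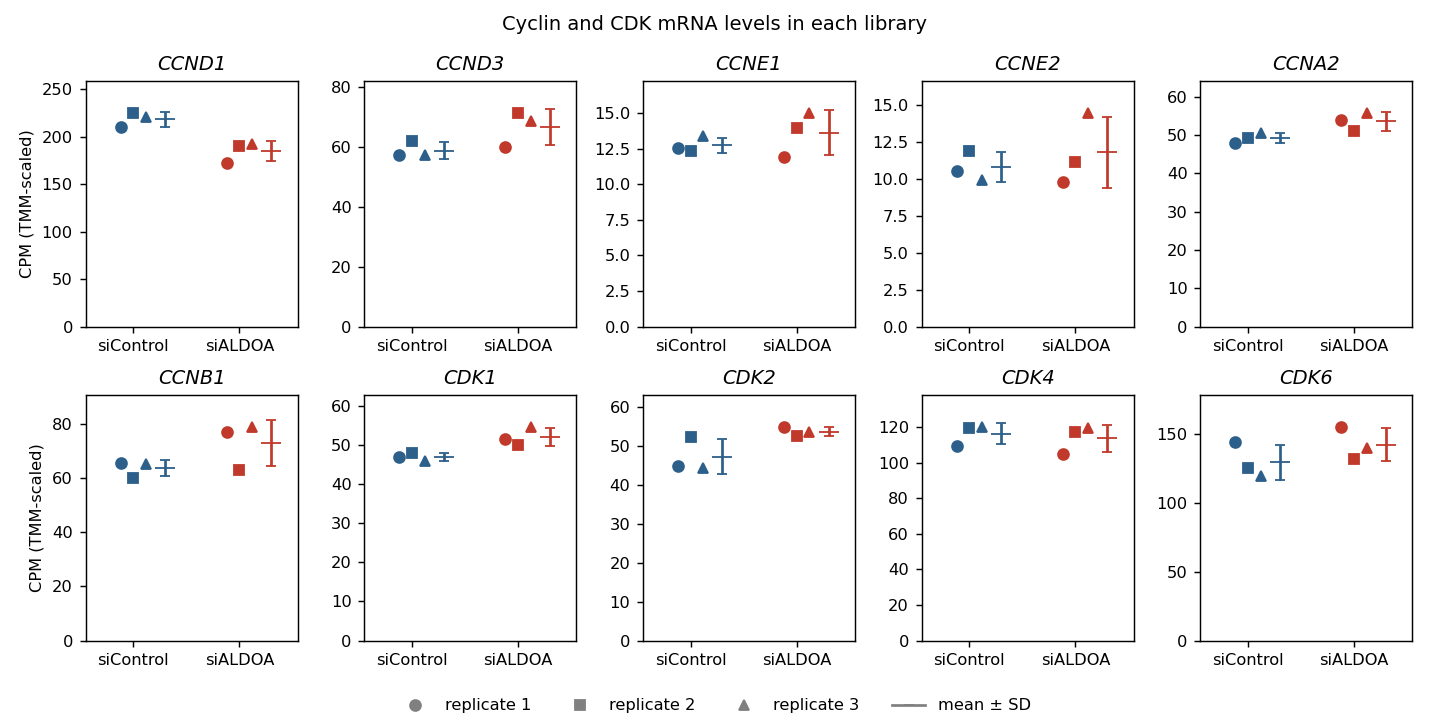
Level of each cyclin and CDK in CPM (y axis from 0, scaled by the trimmed mean of M-values) in the 3 siControl (blue) and 3 siALDOA (red) libraries. Circles, squares and triangles are replicates 1, 2 and 3, and the bars give mean ± SD. For CCND1 all 3 red points, 172 to 192 CPM, lie below the blue points, 210 to 225 CPM.

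The G1/S members, the E-type cyclins and their kinase CDK2, gave no call. CCNE1 encodes cyclin E1 (chr19:29811991-29824312, plus strand). It stood at 11.9, 13.9 and 15.0 CPM with siALDOA and at 12.5, 12.4 and 13.4 CPM with siControl. The siALDOA libraries spread on both sides of the siControl range. The log2 fold change was 0.095 (SE 0.11, 95% interval -0.14 to 0.33, edgeR adjusted p = 0.667). It was 0.020 without siALDOA replicate 3, 0.18 without siALDOA replicate 1 and 0.17 with library totals alone, and was not called in any of these.

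CCNE2, which encodes the paralog cyclin E2 (chr8:94879770-94896678, minus strand), stood at 9.77, 11.2 and 14.5 CPM with siALDOA and at 10.5, 11.9 and 9.92 CPM with siControl. Its highest library was siALDOA replicate 3 and its lowest siALDOA replicate 1, so the groups overlapped throughout. CCNE2 had a log2 fold change of 0.13 (SE 0.14, 95% interval -0.15 to 0.42, edgeR adjusted p = 0.623), the widest interval of the 10 genes. It was -0.042 without siALDOA replicate 3 and 0.25 without siALDOA replicate 1, and lay between 0.073 and 0.21 without siControl replicate 3 or 2 and with library totals alone, with no call. The log2 ratio of CCNE2 to CCNE1 differed by 0.025 (SE 0.14, exact two-sided permutation p = 1), and leaving out each library in turn gave -0.067 (without siControl replicate 3) to 0.12 (without siControl replicate 2). The 2 E-type cyclins had the fewest reads of the group, down to 272 in a library.

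CDK2 (chr12:55966781-55972789, plus strand) encodes the kinase of the E- and A-type cyclins. It stood at 54.7, 52.4 and 53.6 CPM with siALDOA and at 44.8, 52.3 and 44.2 CPM with siControl. The groups did not overlap, but only narrowly, since siControl replicate 2 lay just under the lowest siALDOA library. The log2 fold change was 0.19 (SE 0.073, 95% interval 0.033 to 0.34) and the edgeR adjusted p was 0.120. Without siControl replicate 2 it was 0.26, with an edgeR adjusted p of 0.0502, and without siControl replicate 3 it was 0.14 (adjusted p = 0.411).

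The S-phase and mitotic members, CCNA2, CCNB1 and CDK1, were all higher in mean level with siALDOA, and none passed the adjusted threshold. CCNA2 encodes cyclin A2 (chr4:121816444-121823883, minus strand). It stood at 54.0, 51.0 and 55.8 CPM with siALDOA and at 48.0, 49.2 and 50.5 CPM with siControl. The ranges were separated by a gap smaller than the spread within the siALDOA group. For CCNA2 the log2 fold change was 0.12 (SE 0.066, 95% interval -0.016 to 0.26, edgeR adjusted p = 0.278), and it was 0.19 with library totals alone.

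CCNB1 encodes cyclin B1 (chr5:69167135-69178245, plus strand). Its level was 76.8, 62.9 and 78.7 CPM with siALDOA and 65.4, 60.1 and 65.1 CPM with siControl. Replicate 2 was the lowest library of both groups, and siALDOA replicate 2 lay inside the siControl range. For CCNB1 the log2 fold change was 0.20 (SE 0.077, 95% interval 0.035 to 0.36) with an edgeR adjusted p of 0.120. Without siALDOA replicate 2 it was 0.29, with an edgeR adjusted p of 0.0202, and without siALDOA replicate 3 it was 0.14 (adjusted p = 0.381). The log2 ratio of CCNB1 to CCNA2 differed between the groups by 0.069 (SE 0.080, exact two-sided permutation p = 0.5). Without 1 library that difference lay between 0.029 (siControl replicate 2) and 0.13 (siALDOA replicate 2), and it was also moved by leaving out siALDOA replicate 1 (0.033), siALDOA replicate 3 (0.039) or siControl replicate 1 (0.11).

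CDK1, the mitotic kinase (chr10:60778331-60794852, plus strand), stood at 51.6, 49.8 and 54.5 CPM with siALDOA and at 46.8, 47.9 and 45.9 CPM with siControl. Every siALDOA library was above every siControl library. CDK1 had a log2 fold change of 0.15 (SE 0.067, 95% interval 0.0093 to 0.29) and an edgeR adjusted p of 0.180.

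**Figure D3:**
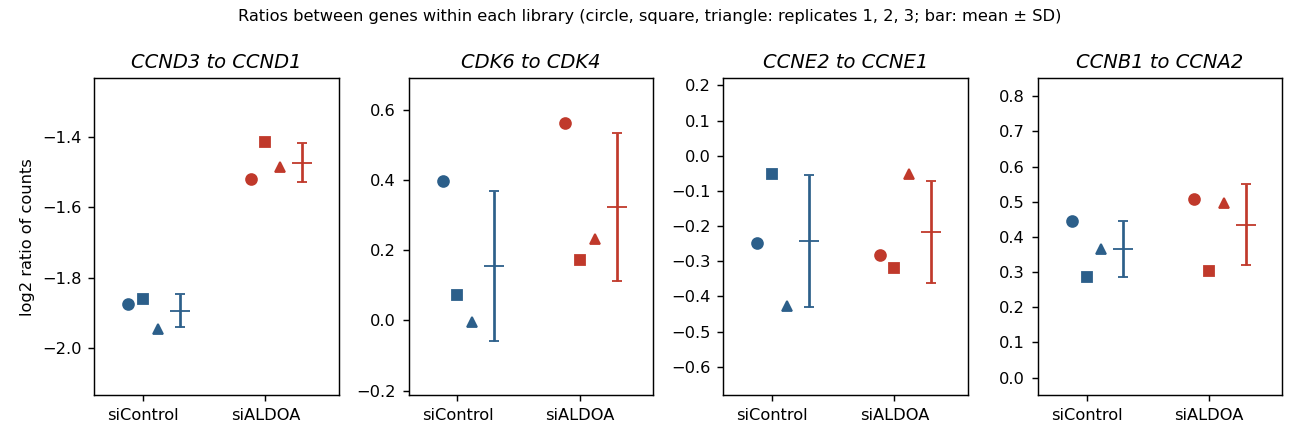
Log2 ratio of counts between paired genes within each library (y axis), for siControl (blue) and siALDOA (red) libraries, with circles, squares and triangles for replicates 1, 2 and 3 and bars for mean ± SD. Each panel spans the same height on its own axis, and only CCND3 to CCND1 separates the groups, at -1.52 to -1.41 against -1.95 to -1.86.

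Many S-phase and mitotic genes carry short promoter elements read by E2F, NF-Y and MuvB complexes, and examples of their sequences are shown for the S-phase and mitotic members. Promoters were the 250 bases before to 50 bases after each annotated start in RefSeq (GRCh38.p14), and entries were matched for 7 of the 10 genes, CCND3, CCNE1, CCNA2, CCNB1, CDK1, CDK4 and CDK6. On either strand, the cell-cycle homology region in its form TTTGAA was in the CDK1 promoter of the 7 and in 15.2% of all 35114 promoters. Other forms of that region were not searched for. Of the E2F forms TTTCCCGC, TTTGGCGC, TTTCGCGC and TTTGCCGC, the CDK1 promoter held TTTCGCGC and the other 6 held none, and 3.31% of all promoters held at least 1 of the 4. The shorter GCGGGAA, whose reverse complement overlaps the first of these forms, was in none of the 7, against 6.55%. The CCAAT box, CCAAT or its reverse complement ATTGG, was in CCND3, CCNA2, CCNB1 and CDK1, against 34.6%. These shares count single promoter entries, while a gene counts as holding a motif if any of its entries does, and CCND3 had 3 entries and CDK1 and CDK6 had 2 each. The windows of 30 bases below are written along the strand of the gene, with the motif in capitals, at chr10:60778453-60778482, chr10:60778420-60778449 and chr10:60778339-60778368 for CDK1, chr5:69167051-69167080 and chr5:69167083-69167112 for CCNB1, and chr4:121823922-121823951 for CCNA2, in that order.
CDK1 homology region: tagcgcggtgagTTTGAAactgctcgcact
CDK1 CCAAT box: acgggctacccgATTGGtgaatccggggcc
CDK1 E2F form: tttcctctttcTTTCGCGCtctagccaccc
CCNB1 upstream CCAAT box: gaccggcagccgCCAATgggaagggagtga
CCNB1 downstream CCAAT box: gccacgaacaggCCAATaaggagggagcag
CCNA2 CCAAT box: gcgagcgctttcATTGGtccatttcaatag

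The windows are not all the matches, since CDK1 held further homology regions and CCAAT boxes and CCND3 held CCAAT boxes too. The CDK1 windows show the homology region and the CCAAT box close upstream of the second annotated start, with the motifs at -13 and -46 from it and the E2F form further up at -128. The 2 CCAAT boxes of CCNB1 lie at -87 and -55 from its start, and that of CCNA2 at -56. A match of letters is a description of the window and not a measurement of binding. The same 3 genes are those described just above, with log2 fold changes of 0.12 for CCNA2, 0.20 for CCNB1 and 0.15 for CDK1 and no call.

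Levels of different genes were set side by side per kilobase of the MANE transcript, in siControl libraries. CDK4 was highest at 62.2 ± 3.17 CPM per kilobase and CCND1 next at 51.5 ± 1.83. CCNB1 (31.3), CCND3 (29.0), CDK1 (24.8), CDK2 (21.0), CCNA2 (17.9) and CDK6 (11.1 CPM per kilobase) followed. CCNE1 at 6.52 ± 0.276 and CCNE2 at 4.04 ± 0.385 CPM per kilobase were the lowest. Neighbours in this order had separate ranges over the 3 libraries except CCNB1 and CCND3, whose ranges overlapped. The order depended on the length used. Per kilobase of all annotated exons of a gene CCND1 (45.8) came before CDK4 (37.5), CCND3 dropped to eighth place (10.2 CPM per kilobase), and neighbours from CDK2 to CCND3 overlapped, while CCNE1 (5.18) and CCNE2 (2.45) stayed last.

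**Figure D4:**
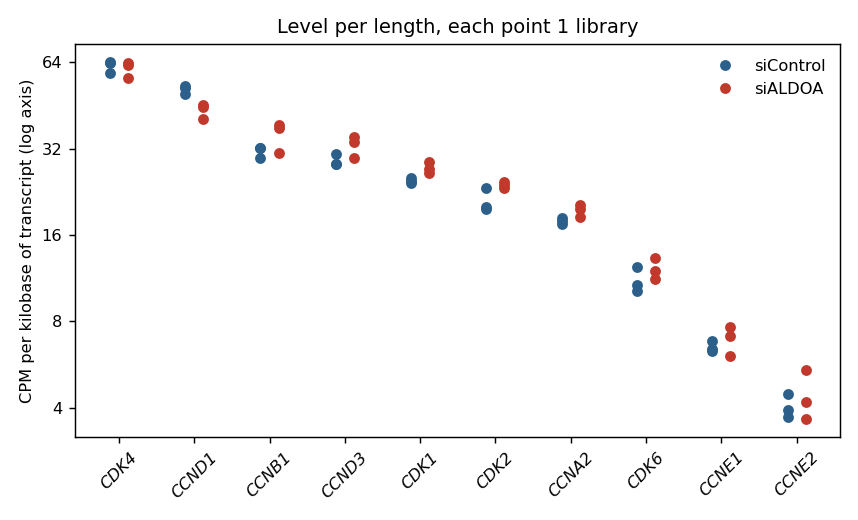
Level of each gene in CPM per kilobase of its MANE transcript (y axis, log scale), ordered from the highest to the lowest siControl mean, with 1 point per library in blue (siControl) and red (siALDOA). CDK4 leads at a siControl mean of 62.2 and the 2 E-type cyclins close the order at 6.52 and 4.04.

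Several of these genes share exon sequence with a gene on the opposite strand, and the strand setting of the counting is not given in the sources used here, so reads from the 2 strands there cannot be told apart. CCNE2 shares 1629 exon bases with INTS8, 1522 of them in its MANE transcript. INTS8, a subunit of the Integrator complex, stood at 42.0 ± 1.48 CPM with siALDOA and 42.1 ± 3.66 with siControl (log2 fold change -0.0031, edgeR adjusted p = 0.985). CDK4 shares 1369 exon bases with TSPAN31, 1078 of them in its MANE transcript of 1865 bases. TSPAN31 stood at 129 ± 6.66 and 123 ± 8.05 CPM (0.058, edgeR adjusted p = 0.639). The overlap was 497 bases between CCND1 and LTO1, and LTO1 had a log2 fold change of -0.0069 (edgeR adjusted p = 0.972). It was 254 bases between CCNA2 and EXOSC9, with 0.093 for EXOSC9 (edgeR adjusted p = 0.624). CDK2 shares 565 exon bases, 287 of them in its MANE transcript, with a long noncoding RNA (ENSG00000258554) that was not analysed here, and 89 with PMEL, whose log2 fold change was 0.20 (SE 0.35, edgeR adjusted p = 0.789). The overlap was 86 bases between CDK6 and its antisense gene CDK6-AS1, which had 4 reads in all.

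Around the 10 genes, lists of pathway members grouped by function held 13 calls among 127 tested entries (123 genes, some in more than 1 list). That was 10.2% beside the 9.66% of all tested genes, in lists chosen with earlier results of these data known. Calls went in both directions, and each is named here. Of the 5 other cell-cycle cyclins, 3 were tested, CCND2 and CCNA1 being too low. CCNB3, a meiotic B-type cyclin, was called lower at 0.140 ± 0.038 against 0.566 ± 0.168 CPM (log2 fold change -2.00, SE 0.57, edgeR adjusted p = 0.0299), a call lost on leaving out any 1 library. Among 30 cyclins and CDKs of transcription or atypical function the edgeR quasi-likelihood test called 0, as did every alternative. Of the 30, 4 had an unadjusted p under 0.05, beside 23.6% of all tested genes. The median of the 30 lay at -0.0062 on the log2 scale. CDK11A and CDK11B in that list are near-identical copies, so their counts are uncertain.

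Among regulators of CDKs, 1 of 9 activators and partners (CDK-activating enzymes, CDK-binding CKS subunits and a co-chaperone) was called. CDC37, the co-chaperone that loads kinases such as CDK4 onto HSP90, was lower. It stood at 77.6, 109 and 102 CPM with siALDOA and at 113, 127 and 121 CPM with siControl, a log2 fold change of -0.32 (SE 0.090, edgeR adjusted p = 0.0260), where siALDOA replicate 1 was far below the other libraries. Without that library it was -0.19 (edgeR adjusted p = 0.0605), and the call was also lost without siControl replicate 2 (0.130), without siControl replicate 3 (0.0840) and with library totals alone (adjusted p = 0.137). Neither WEE1 nor PKMYT1, which inhibit CDKs by phosphorylation, was called, under any alternative.

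Of 8 CDK inhibitor genes, CDKN1A fell and CDKN2C rose. CDKN1A encodes p21, a p53-responsive inhibitor of cyclin-CDK complexes. Its level was 35.2, 36.2 and 37.8 CPM with siALDOA and 51.2, 49.9 and 53.1 CPM with siControl, with no overlap. The log2 fold change was -0.50 (SE 0.068, edgeR adjusted p = 5.02e-05), and it was called under all 16 alternatives. CDKN2C encodes p18-INK4C, an inhibitor of CDK4 and CDK6, and stood at 11.5, 10.1 and 11.9 CPM against 8.40, 7.57 and 7.10 CPM. Its log2 fold change was 0.54 (SE 0.13, edgeR adjusted p = 0.00846), and the call was lost without siControl replicate 3 (adjusted p = 0.0555).

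Downstream of the G1 kinases, 1 of 12 tested RB-family, E2F and DP genes was called. RBL2, which encodes the RB relative p130, rose from 78.5 ± 5.84 to 94.8 ± 10.5 CPM (log2 fold change 0.27, SE 0.076, edgeR adjusted p = 0.0257). That call was lost without siALDOA replicate 1 (0.18, adjusted p = 0.0999), siALDOA replicate 2 (0.0505), siControl replicate 2 (0.123) or siControl replicate 3 (0.141). E2F2 had 0 counts in every library.

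Of 18 E2F target genes of G1/S, 2 were called higher and 0 lower by the edgeR quasi-likelihood test. The shares of all tested genes were 4.36% and 5.29%, and 0 of the 18 were called lower under any alternative. Of the 18, 5 had an unadjusted p under 0.05, beside 23.6% of all tested genes. The median log2 fold change of the 18 was 0.095, with 15 of 18 above 0, beside the 50.3% of all tested genes. TK1, thymidine kinase, rose from 90.9 ± 4.04 to 108 ± 6.47 CPM (0.25, SE 0.063, edgeR adjusted p = 0.0162). RRM2, a subunit of ribonucleotide reductase, rose from 112 ± 3.10 to 127 ± 3.83 CPM (0.19, SE 0.057, edgeR adjusted p = 0.0447). Neither call was stable: TK1 lost it without siALDOA replicate 2 or 3 or siControl replicate 1 or 3 (adjusted p 0.0630 to 0.0896), and RRM2 with no filter on low counts (0.0562) and on leaving out any library but siALDOA replicate 1 (adjusted p 0.0750 to 0.157).

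Of 20 G2/M genes of the MuvB and FOXM1 programme, 3 were called higher and 1 lower, beside 4.36% and 5.29% of all tested genes. Above 0 lay 15 of them, beside 50.3% of all tested genes, and the median on the log2 scale was 0.098. BUB1, a kinase of the spindle checkpoint, rose from 27.2 ± 1.99 to 34.1 ± 1.31 CPM (0.33, SE 0.081, edgeR adjusted p = 0.0119). TOP2A, the topoisomerase of dividing cells, rose from 180 ± 7.11 to 213 ± 14.0 CPM (0.24, SE 0.060, edgeR adjusted p = 0.0122). TTK, another checkpoint kinase, rose from 10.8 ± 0.225 to 13.7 ± 0.497 CPM (0.34, SE 0.11, edgeR adjusted p = 0.0464). CENPF, a kinetochore protein of G2 and mitosis, fell from 124 ± 5.55 to 99.6 ± 6.77 CPM (-0.32, SE 0.063, edgeR adjusted p = 0.00244). The CENPF libraries did not overlap between the groups, and its direction was opposite to that of the other 3 calls. With library totals alone CENPF lost its call (-0.25, edgeR adjusted p = 0.0623). The TTK call was lost by limma-voom (adjusted p = 0.0540), with no filter on low counts (0.0529) and on leaving out any 1 library (0.0731 to 0.142), the BUB1 call without siControl replicate 2 (0.0768) and the TOP2A call without siControl replicate 2 (0.0852) or siControl replicate 3 (0.0630).

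Ubiquitin ligase parts that act on cyclins and CDK inhibitors gave 0 calls of 12 by the edgeR quasi-likelihood test, limma-voom and DESeq2. Of the 12, 3 had an unadjusted p under 0.05, beside 23.6% of all tested genes. Of 13 regulators upstream of the D-type cyclins, 1 rose and 1 fell, DESeq2 and the fit with no filter each calling 1 more lower, and their median log2 fold change was -0.10, with 9 of 13 below 0. JUN, an AP-1 subunit, stood at 139, 133 and 132 CPM with siALDOA and at 177, 185 and 175 CPM with siControl. The 2 ranges were far apart relative to their spread, and JUN fell by 0.41 on the log2 scale (SE 0.056, edgeR adjusted p = 5.02e-05). ETS2, an ETS-family transcription factor, stood at 505, 489 and 489 CPM against 411, 387 and 403 CPM, and rose by 0.30 (SE 0.054, edgeR adjusted p = 7.91e-04). Both calls held under all 16 alternatives.

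**Figure D5:**
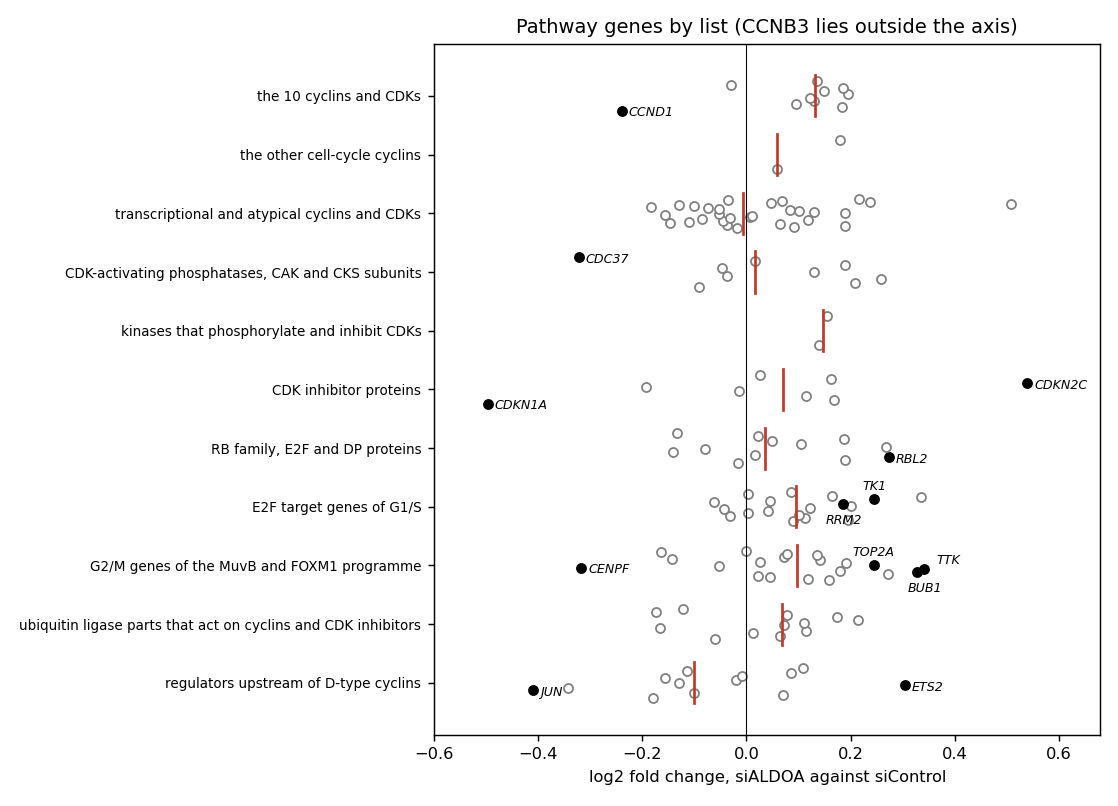
Log2 fold change (x axis, siALDOA against siControl) of every tested gene of the 10 cyclins and CDKs and of 10 pathway lists, 1 point per gene. Filled, named points are past the adjusted threshold of 0.05, red bars are medians, and CCNB3 at -2.00 lies outside the axis but counts in its list's median. The medians lie between -0.10 and 0.15, and calls fall on both sides of 0.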

How the data were processed

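RNA-Seq was carried out on HT29 cells, with 3 siALDOA and 3 siControl libraries. Per the study's methods and the submitters' processing notes, paired-end reads were aligned to hg38 by TopHat2, reads per gene were counted by gfold, and the authors went on with edgeR and limma. The deposited values are raw read counts per gene symbol, whole numbers with no normalization. How strand and reads that map to several places were treated, and which gene annotation was used, are not given in the sources used here.

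The deposited counts were filtered by filterByExpr, scaled by the trimmed mean of M-values and tested with edgeR 4.0.16 (quasi-likelihood, R 4.3.3), siALDOA against siControl with no covariate, and p-values were adjusted over all 15307 tested genes by the Benjamini-Hochberg method. Standard errors were obtained by dividing each log2 fold change by √F. Ratios between genes are log2 of counts plus 0.5, compared by an exact two-sided permutation test. The pipeline was tested on simulated data. Figures were drawn with matplotlib 3.10.9.

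Alternatives were limma-voom (limma 3.58.1), DESeq2 1.42.0, edgeR's likelihood ratio test, other scalings and filters, the replicate block and leaving out each library. The sets of genes and lists were chosen with earlier results of these data known. Named genes were the 10 cyclins and CDKs, ALDOA, up to 4 called genes of each list by smallest adjusted p, list members left out by the filter and the 3 genes most like each called member. The marker PECAM1, the genes that overlap a member on the other strand, WEE1, PKMYT1, CDK11A and CDK11B were named outside that rule. No 2 libraries of the same group were duplicates, since all pairs of replicates within a group differed by more than counting noise (chi-square per gene 5.09 to 90.7). Counts between 272 and 7257 per library lay behind each cyclin or CDK.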

Additional observations from a re-analysis of the deposited data

How the results depend on the processing

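Over 16 alternatives, 151 of 160 fold changes of the 10 cyclins and CDKs kept their direction and side of the threshold, and 10 alternatives called 1 gene. Scaling by library totals alone called 0 members, 4 E2F targets and 2 RB-family or E2F genes. Among CDK activators and partners it called 1 higher and 0 lower in place of 0 higher and 1 lower. It moved the median of all genes to 0.075 (log2) and the calls from 668 higher and 810 lower to 896 and 279. In an alternative chosen after seeing the data, with ribosomal RNA genes also removed, 1 member was called. The likelihood ratio test called 2 RB-family or E2F genes. DESeq2 and the fit with no filter called 3 upstream regulators. With no filter 1 E2F target and 0 of the other cyclins were called. DESeq2 gave CCNB3 no adjusted p, and a minimum of 10 counts in every library left it untested. The fit with the replicate block called 2 members, CCND1 and CCNB1 (adjusted p = 0.0348 for CCNB1). It also called 3 CDK activators or partners, 2 RB-family or E2F genes, 4 upstream regulators and 1 ubiquitin ligase part. In all it called 987 genes higher and 1175 lower. Deviations of same-numbered libraries correlated at 0.026 to 0.035, under 0.1, though each library correlated best with its own number. Whether the numbers mark a shared batch was not tested. Leaving out 1 library gave 0 to 2 called members, 0 to 2 CDK activators or partners and 0 to 2 RB-family or E2F genes. It also gave 0 to 3 E2F targets, 1 to 3 G2/M genes, 2 to 3 upstream regulators and 1 to 2 CDK inhibitors. Of the other cyclins it gave 0. It gave 359 higher and 490 lower genes without siControl replicate 2, and 363 and 471 without siControl replicate 3. Directions turned for CDK4 under library totals alone (0.043) and without siALDOA replicate 1 (0.023), and for CCNE2 without siALDOA replicate 3 (-0.042). On leaving out 1 library the log2 fold change of CDK4 ran from -0.072 to 0.023, that of CCNE2 from -0.042 to 0.25, and the CCNE2 to CCNE1 ratio difference from -0.067 to 0.12. The causes were not tested.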
